A study of Rattus norvegicus with 8 samples.

Results

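The comparison described here set the hypothalamus of leptin-treated offspring of calorie-restricted rats (CR-l) against that of saline-treated offspring of normally fed rats (Con-s), and asked how far the former remained from the latter. It was defined by the array titles: CR-l replicates A and B against Con-s replicates A and B, that is 4 of the 8 arrays, across all 14506 genes that could be named. All animals were female Sprague-Dawley offspring sampled at day 21, and each array measured hypothalamic RNA on Affymetrix Rat Gene 1.0, which reports a brightness (intensity) per gene. Con-s offspring had mothers with normal feeding in pregnancy and lactation and received saline. CR-l offspring had mothers whose calories were cut by 50% between gestation days 11 and 21 and again after birth, and received leptin, from postnatal day 2 to 8. The remaining groups, also of 2 arrays each, were restricted offspring given saline (CR-s) and control offspring given leptin (Con-l). All 4 groups, the controls included, were given saline or leptin, so none was left untreated. The protocol places the treatment in the first postnatal days, whereas the sample names can also be read as treatment of the mothers. The sources used here do not say whether an array holds 1 animal, a pool or a litter, so the p-values below measure only the spread between these 8 samples.

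Leptin is a hormone made by fat tissue that reports energy stores to the brain. In the arcuate nucleus of the adult hypothalamus it restrains neurons that make neuropeptide Y and agouti-related peptide, which drive feeding, and excites neurons that make proopiomelanocortin and the CART peptide, which restrain it, mainly through its receptor, the kinase Jak2 and the transcription factor Stat3. In newborn rodents a surge of leptin also promotes the outgrowth of arcuate nerve fibres, and undernutrition around birth lowers that surge. The dissected tissue carried its defining transcripts: oxytocin (Oxt) read 11.04 to 11.70 on the 4 arrays compared, melanin-concentrating hormone (Pmch) 11.10 to 11.53, vasopressin (Avp) 9.92 to 10.16 and orexin (Hcrt) 9.36 to 9.75, all as log2 intensity, on which 1 unit is a doubling. Levels of different genes were not set against each other, because probes differ in brightness.

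Of 14506 genes, 2 differed between CR-l and Con-s at a Benjamini-Hochberg adjusted p under 0.05 in limma, a background of 0.0138%. Rbm3, which encodes an RNA-binding protein induced by mild cold, rose, and Serpinh1, which encodes the collagen chaperone of the endoplasmic reticulum (HSP47), fell. An unadjusted p under 0.05 was reached by 1772 genes (12.2%), 829 higher in CR-l (5.71%) and 943 lower (6.5%). Both CR-l arrays lay above both Con-s arrays for 3269 genes (22.5%) and below them for 3332 (23%). A difference of at least 1.5-fold without overlap of the arrays was found for 69 genes (0.476%), of which 26 were higher (0.179%) and 43 lower (0.296%) in CR-l, and 16 of the 69 had a mean log2 intensity below 6, in the dim range. The count of genes that passed depended on how the variance was modelled. It was 213 (65 up, 148 down) with a mean-dependent, outlier-robust variance, 103 (32 up, 71 down) among the brighter 60% of genes, and 0 when any single Con-s, CR-s or CR-l array was left out.

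**Figure D1:**
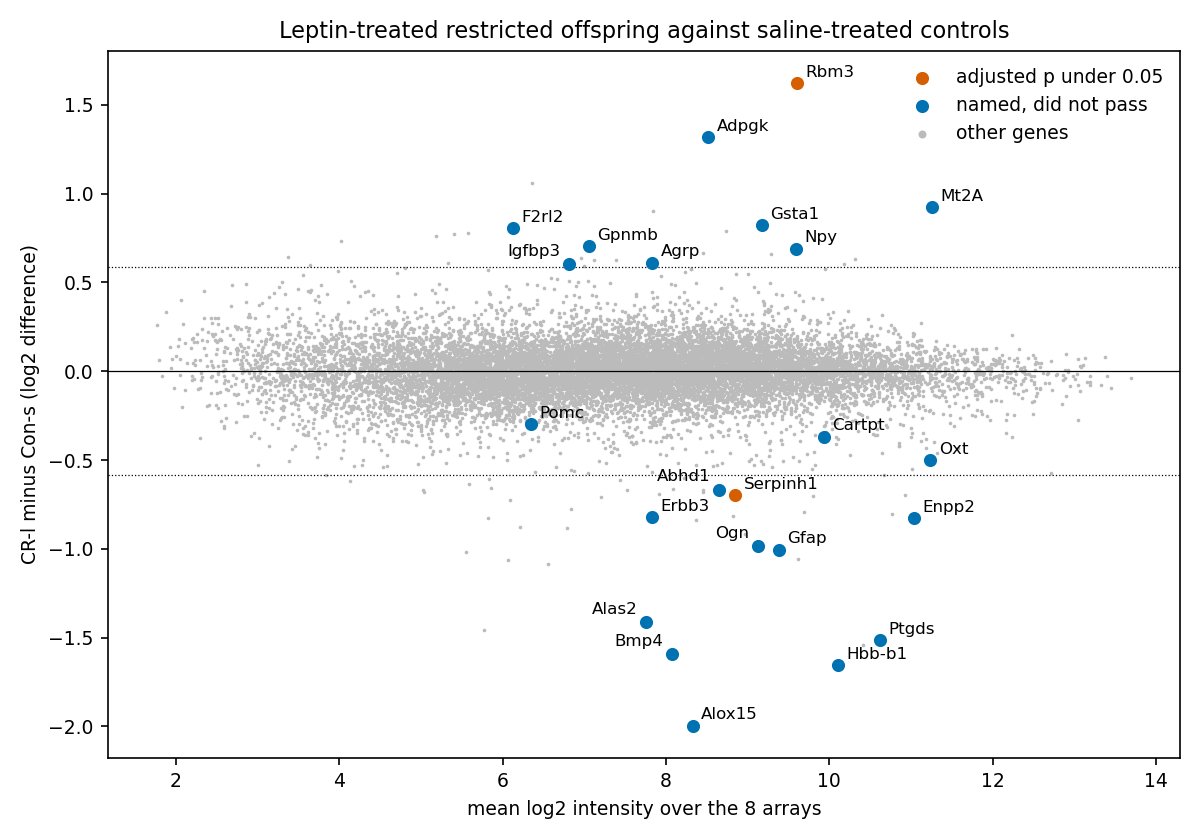
Each point is a gene. The x axis gives its mean log2 intensity over the 8 arrays and the y axis the log2 difference CR-l minus Con-s, with dotted lines at a 1.5-fold difference. Rbm3 and Serpinh1 are the 2 genes that passed, and the named genes that did not pass include Alox15 at -1.996 and Adpgk at 1.32.

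Measured over all genes, the CR-l hypothalamus lay further from Con-s than the other restricted group did. The median size of the log2 difference from Con-s was 0.0801 for CR-l, 0.0719 for CR-s and 0.0596 for Con-l. CR-l and CR-s were 0.0680 apart, and CR-l and Con-l 0.0844. For scale, the A and B arrays of the same group, divided by the square root of 2 to match a difference of means of 2, gave 0.0586 (Con-s), 0.0611 (Con-l), 0.0658 (CR-s) and 0.0555 (CR-l). The distance of CR-l and of CR-s from Con-s was thus above every within-group value, and that of Con-l was within their range. Genes at least 1.5-fold apart numbered 73 for CR-l against Con-s, 50 for CR-s against Con-s and 22 for Con-l against Con-s. These distances share the Con-s arrays and were not tested against each other.

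Rbm3 had the largest rise. Its log2 intensity was 9.03 and 8.82 on the Con-s arrays and 10.37 and 10.73 on the CR-l arrays. The CR-s arrays, at 10.18 and 9.94, lay between, and the Con-l arrays, at 8.95 and 8.80, lay near Con-s. The difference CR-l minus Con-s was 1.62 (SE 0.142), a 3.08-fold rise with a limma adjusted p of 0.04998. Cirbp, the related cold-inducible RNA-binding protein, read 9.08 and 9.06 in Con-s against 9.45 and 9.68 in CR-l, a difference of 0.50 (SE 0.0847) with an adjusted p of 0.119. The other measured members of the cold and heat-shock list were near 0 or lower: Hsph1, a heat-shock co-chaperone, differed by -0.54 and Hsp90aa1, the inducible HSP90, by -0.24, with adjusted p of 0.249 and 0.257.

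Serpinh1 had tight replicates in every group. Con-s arrays read 9.12 and 9.09 and Con-l arrays 9.20 and 9.22. The restricted groups read 8.68 and 8.65 without leptin (CR-s) and 8.35 and 8.46 with it (CR-l). The fall between Con-s and CR-l was 1.62-fold, a log2 difference of -0.70 (SE 0.0606) with an adjusted p of 0.04998. Both restricted groups were below both control groups, and CR-l was below CR-s. Both calls sat at the threshold: leaving out any single array of the 8 moved the adjusted p of Rbm3 to between 0.0708 and 0.363 and that of Serpinh1 to between 0.0769 and 0.363. Their differences stayed between 1.45 and 1.80 for Rbm3 and between -0.75 and -0.65 for Serpinh1.

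The promoters of both genes are shown because they are the pair that passed, and because Serpinh1 encodes a heat shock protein while Rbm3 responds to cold. Sequences are RefSeq, rat build GRCr8, 300 bases that run up to and just past the gene start, 5′ to 3′ on the gene's strand: Rbm3 at chrX:17020655-17020954 on the plus strand and Serpinh1 at chr1:163062927-163063226 on the minus strand. Capitals mark GAANNTTC, the core of a heat shock element, searched on both strands.
Rbm3: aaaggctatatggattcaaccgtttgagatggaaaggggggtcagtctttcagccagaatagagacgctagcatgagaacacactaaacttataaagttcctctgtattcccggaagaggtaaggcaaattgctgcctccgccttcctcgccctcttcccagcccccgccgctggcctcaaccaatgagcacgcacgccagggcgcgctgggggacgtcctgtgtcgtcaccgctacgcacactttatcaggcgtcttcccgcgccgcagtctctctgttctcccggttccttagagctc
Serpinh1: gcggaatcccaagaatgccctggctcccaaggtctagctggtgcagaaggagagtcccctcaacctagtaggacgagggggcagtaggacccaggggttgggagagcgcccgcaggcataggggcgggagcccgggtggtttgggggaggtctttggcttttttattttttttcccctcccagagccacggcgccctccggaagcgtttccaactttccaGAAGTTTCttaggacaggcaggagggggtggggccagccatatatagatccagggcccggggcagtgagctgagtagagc
Serpinh1 has 1 match, 30 bases before the start, and Rbm3 has none in this window. The same core occurs in 8.59% of the 33469 promoters, so a match describes the sequence only.

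The other leading genes were well separated without passing. Among the higher genes were Gsta1, a glutathione transferase (0.82), F2rl2, a thrombin-family receptor (0.81), Gpnmb, a membrane glycoprotein of lysosome-rich phagocytes (0.70), and Igfbp3, a carrier of insulin-like growth factors (0.60). Igfbp3 read 6.51 and 6.56 in Con-s and 7.19 and 7.09 in CR-l, and Gpnmb 6.65 and 6.86 against 7.38 and 7.54. For each of these 4 genes both CR-l arrays exceeded both Con-s arrays, and adjusted p ran from 0.0672 for Igfbp3 to 0.131 for Gsta1. With the mean-dependent, robust variance F2rl2, Gpnmb and Igfbp3 passed and Gsta1 did not.

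Among the lower genes the largest difference was that of Alox15, a lipoxygenase that oxidises polyunsaturated fatty acids. It read 9.24 and 9.55 in Con-s and 7.64 and 7.15 in CR-l, a log2 difference of -1.996 (SE 0.197, adjusted p 0.0589). Its CR-s arrays read 7.66 and 7.82 and its Con-l arrays 8.98 and 8.58, so the restricted groups did not overlap the control groups. Enpp2 (autotaxin, made by oligodendrocytes and choroid plexus) differed by -0.83 with an adjusted p of 0.0589. Erbb3, a neuregulin receptor of glia, differed by -0.82, and Abhd1, a hydrolase, by -0.67, both with an adjusted p of 0.0672. In each case both CR-l arrays lay below both Con-s arrays.

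**Figure D2:**
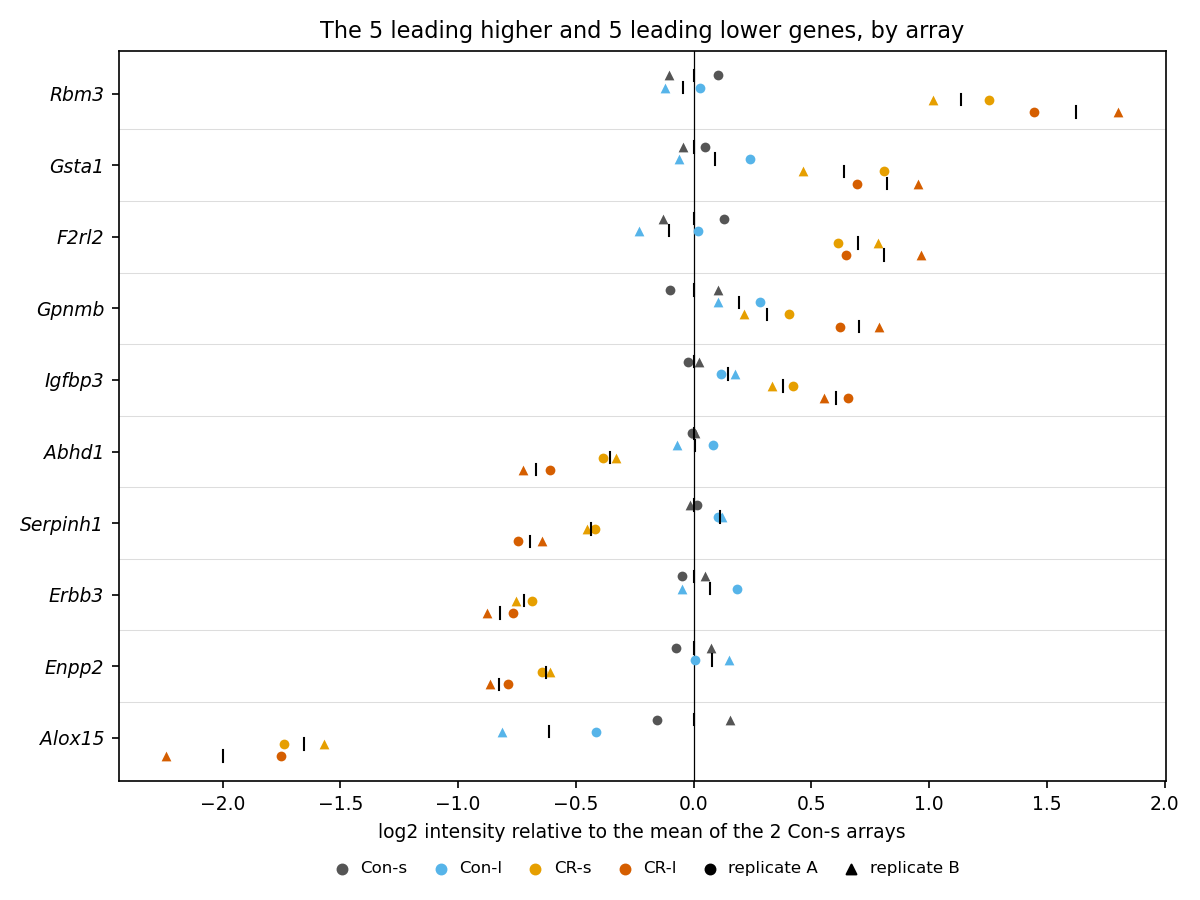
Log2 intensity of the 5 leading higher and 5 leading lower genes on each of the 8 arrays, relative to the mean of the 2 Con-s arrays; circles are replicate A, triangles replicate B and ticks group means. In all 10 genes the CR-l arrays stand apart from the Con-s arrays, and in Rbm3 and Serpinh1 the CR-s arrays fall between.

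Peptides of the arcuate feeding circuit stood among the more separated genes, with the appetite-raising pair higher and the appetite-lowering pair lower in CR-l. Npy read 9.50 and 9.27 in Con-s, 9.95 and 9.76 in CR-s, and 10.24 and 9.90 in CR-l. The Con-l arrays were the lowest at 9.11 and 8.97. CR-l minus Con-s was 0.69 (SE 0.135), or 1.61-fold, with an adjusted p of 0.154. Agrp read 7.538 and 7.504 in Con-s, 8.17 and 8.29 in CR-s, and 8.33 and 7.94 in CR-l, a difference of 0.61 (SE 0.127, adjusted p 0.175). For both peptides no restricted array overlapped a control array.

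On the opposing side, Cartpt (the CART peptide) read 10.20 and 10.06 in Con-s against 9.83 and 9.69 in CR-l, a difference of -0.37 (SE 0.0843, adjusted p 0.206). Pomc, the melanocortin precursor, read 6.58 and 6.45 against 6.22 and 6.21, a difference of -0.30 (SE 0.0743, adjusted p 0.231). Oxt, from paraventricular and supraoptic neurons, read 11.70 and 11.45 against 11.04 and 11.10, a difference of -0.50 (SE 0.0930, adjusted p 0.139). The CR-l arrays did not overlap the Con-s arrays for any of these 3 genes. With the mean-dependent, robust variance Npy, Agrp, Cartpt and Oxt passed (adjusted p 0.0486, 0.0253, 0.0219 and 0.0128) and Pomc did not.

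The rest of the energy-balance genes were closer to control. Pmch (-0.22) and Hcrt (-0.19), of the lateral hypothalamus, were somewhat lower, and for Hcrt the arrays overlapped. Avp differed by 0.12, the stress and thyrotropin releasing hormones Crh and Trh by -0.03 and 0.02, and Bdnf, a growth factor downstream of melanocortin signalling, by -0.04, with overlapping arrays. The melanocortin receptors Mc4r and Mc3r differed by 0.21 and 0.04. Leptin's own intracellular mediators showed little: Stat3 differed by -0.09, and Socs3, the feedback inhibitor of the leptin receptor, by 0.00 with a 95% interval of -0.25 to 0.25. The direction of Crh, Trh, Mc3r and Socs3 turned when a single Con-s or CR-l array was left out. The leptin receptor Lepr was not analysed here.

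**Figure D3:**
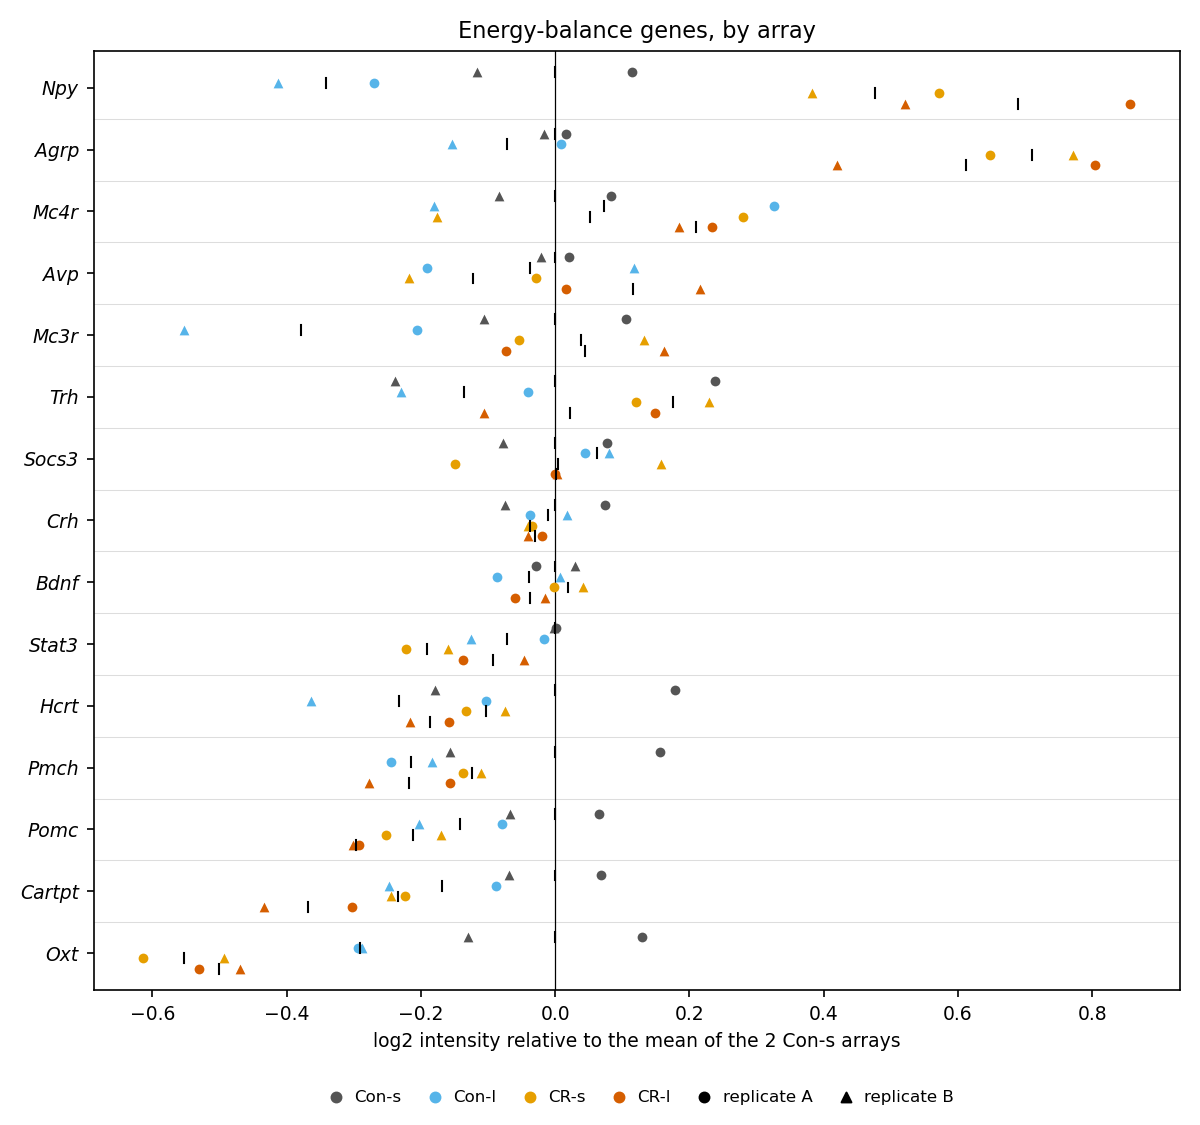
Log2 intensity of the 15 measured energy-balance genes on each of the 8 arrays, relative to the mean of the 2 Con-s arrays; circles are replicate A, triangles replicate B and ticks group means. Npy and Agrp lie to the right in both restricted groups and Oxt, Cartpt and Pomc to the left, while Socs3, Crh and Bdnf stay near 0.

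Taken as wider lists, the feeding peptides did not move as a block. Of 12 appetite-raising peptides 2 were higher and 1 lower at an unadjusted p under 0.05 (background 5.71% and 6.5%), with a list median of -0.11 against 0.00 over all genes. The lower one was Npvf, an RFamide peptide of the dorsomedial nucleus, at -0.27. Of 19 genes of appetite-lowering peptides and signals 2 were higher and 3 lower. Besides Oxt, Cartpt and Pomc, the 4 smallest p-values included Nucb2, the precursor of nesfatin, which was higher by 0.35 (SE 0.0930, adjusted p 0.254). The median of that list was -0.02 and turned positive after renormalization.

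Among 17 receptors of these peptides 3 were higher (5.71% of all genes) and none was lower (6.5%) at an unadjusted p under 0.05, and the median was 0.08. Npy1r, the postsynaptic receptor for neuropeptide Y, read 6.81 and 6.89 in Con-s, 6.96 and 6.72 in CR-s, and 7.25 and 7.28 in CR-l. The CR-l arrays stood above every other array, and CR-l minus Con-s was 0.42 (SE 0.0867, adjusted p 0.175). Hcrtr1, an orexin receptor, and Htr2c, a serotonin receptor on Pomc neurons, were higher by 0.34 and 0.21. Glp1r, the receptor of the gut hormone GLP-1, differed by -0.24 (unadjusted p 0.0565 in limma, adjusted 0.423). Of 15 leptin signalling genes, 1 reached an unadjusted p under 0.05, the cytokine-induced suppressor Cish at -0.33, and the list median was -0.00.

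Red blood cell genes gave the lowest list median. All 8 measured genes were lower in CR-l with no overlap of arrays (23% of all genes), where 49.6% of all genes had a negative difference, 6 at an unadjusted p under 0.05 (6.5% of all genes), and the median was -1.15. The beta-globin Hbb-b1 read 10.68 and 11.15 in Con-s, 9.53 and 9.50 in CR-s, and 9.64 and 8.88 in CR-l, a difference of -1.65 (SE 0.246, adjusted p 0.0962). Alas2, the erythroid enzyme of haem synthesis, differed by -1.41, the band 3 anion exchanger Slc4a1 by -0.88 and the erythroid regulator Hemgn by -0.66, with adjusted p of 0.0839, 0.0840 and 0.0812. In bulk tissue, fewer cells of a type and less RNA per cell cannot be told apart, here and for every cell-type list that follows. Averaged over the list, the arrays stood at -0.18 and 0.18 (Con-s), -0.17 and -0.26 (Con-l), -0.91 and -0.87 (CR-s), and -0.86 and -1.15 (CR-l), relative to the Con-s mean.

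Genes of the meninges, the membranes around the brain, were likewise lower. Of 18 measured genes 17 were below Con-s, 15 without overlap (23% of all genes) and 10 at an unadjusted p under 0.05 (6.5%), with a median of -0.30. Ogn (osteoglycin, a matrix proteoglycan) read 9.67 and 9.45 in Con-s and 8.46 and 8.70 in CR-l, a difference of -0.98 (SE 0.187, adjusted p 0.147). The collagen chain Col1a2 differed by -0.38 and the transporters Slc6a20a and Slc6a13 by -0.67 and -0.43. Dcn, an abundant meningeal proteoglycan, differed by -0.07 with overlapping arrays. The list average stood at 0.01 and -0.01 (Con-s), 0.30 and -0.01 (Con-l), -0.32 and -0.31 (CR-s), and -0.37 and -0.24 (CR-l). Red cell and meningeal levels thus differed by diet group, and their part in the results for Serpinh1, Alox15, Ptgds and the other genes described here was not tested.

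Markers of other neighbouring tissue gave smaller or uneven values. In 19 genes of vessel cells the median was 0.00, with the pericyte gene Rgs5 at -0.42 (adjusted p 0.110) and the smooth-muscle gene Tagln at -0.22, while the endothelial gene Cldn5 differed by 0.03. In 14 choroid plexus genes the median was -0.08: the potassium channel Kcnj13 differed by -0.88, whereas transthyretin (Ttr) differed by -0.12 with overlapping arrays. In 9 pituitary genes the median was -0.03. Con-l A, which is not one of the arrays compared but enters the fit, averaged 0.43 above the Con-s mean over that list. Con-l B stood at -0.01, and the pituitary hormone gene Cga read 9.19 on Con-l A and 6.19 on Con-l B. Perivascular macrophage genes ran the other way, with 3 of 5 higher at an unadjusted p under 0.05 (5.71% of all genes), the chemokine Pf4 at -0.06 and a median of 0.24. The higher genes included the haemoglobin scavenger receptor Cd163 at 0.49, read at 6.18 and 6.19 in Con-s and 6.49 and 6.86 in CR-l. Microglia showed no common direction, with a median of 0.05; the protease Ctss was 0.27 higher and the integrin Itgam differed by -0.32. Cdh19, a cadherin of Schwann cells and their precursors, stood out in a peripheral nerve list of 6 with median -0.07: it read 6.40 and 6.42 in Con-s and 5.53 and 5.16 in CR-l, a difference of -1.06 (SE 0.132, adjusted p 0.0812).

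Genes of myelin and mature oligodendrocytes, the cells that wrap axons in myelin, were lower in CR-l almost throughout. Of 21 measured genes 20 were below Con-s, 19 without overlap of arrays and 15 at an unadjusted p under 0.05, against backgrounds of 23% and 6.5%, and the median was -0.25. Ndrg1, a stress-response protein of oligodendrocytes, read 9.89 and 10.19 in Con-s, 9.52 and 9.52 in CR-s, and 9.35 and 9.15 in CR-l, a difference of -0.80 (SE 0.109, adjusted p 0.0813). Apod (apolipoprotein D) differed by -0.57 and Ermn (ermin, a cytoskeletal protein of myelinating cells) by -0.59, with adjusted p of 0.0867 and 0.110. The structural myelin genes differed less: Mog by -0.28, Mag by -0.16 and Mbp by -0.14, each without overlap. A second, dimmer probe set of Mbp gave 0.05. With the mean-dependent, robust variance 7 of the 21 passed, all lower.

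Genes of oligodendrocyte precursors were mixed. Of 10 genes 6 were lower (49.6% of all genes) and 4 higher, with a median of -0.06. The precursor receptor Pdgfra and the proteoglycan Cspg4 were higher by 0.23 and 0.22. Olig1, Sox10 and Gpr17 differed by -0.11, -0.07 and -0.07. Bmp4, which signals in newly formed oligodendrocytes, had a difference of -1.59 that came from 1 array: it read 5.82 on CR-l A and 8.20 on CR-l B, against 8.20 and 9.02 in Con-s.

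Cholesterol synthesis, which supplies myelin and synaptic membranes, was lower over nearly the whole pathway. Of 18 measured genes 17 lay below Con-s without overlap (23% of all genes), 13 at an unadjusted p under 0.05 (6.5%), and the median was -0.26. Msmo1, the sterol C4 methyl oxidase, read 11.24 and 11.37 in Con-s, 10.77 and 10.86 in CR-s, and 10.69 and 10.81 in CR-l, a difference of -0.55 (SE 0.0738, adjusted p 0.0812). Cyp51, the lanosterol demethylase, differed by -0.40, the decarboxylating dehydrogenase Nsdhl by -0.34, and Srebf2, the transcription factor that drives the pathway, by -0.39, with adjusted p of 0.119, 0.119 and 0.118. With the mean-dependent, robust variance 8 of the 18 passed, all lower. The desaturase Scd, of fatty acid synthesis, differed by -0.82 (adjusted p 0.130), and Acat1, the mitochondrial thiolase of ketone use, by 0.55 (adjusted p 0.142). Of the 14 promoters of these cholesterol genes found in RefSeq, 0 held TCACNCCAC, a sterol regulatory element core found in 1.12% of all promoters. At so low a share most sets of 14 promoters would hold none, so the count does not set these genes apart.

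Astrocyte genes split. In 13 genes the median was -0.03, with 5 lower (6.5% of all genes) and 1 higher (5.71%) at an unadjusted p under 0.05. Gfap, the intermediate filament of astrocytes, read 9.79 and 9.67 in Con-s, 9.31 and 8.90 in CR-s, and 8.56 and 8.89 in CR-l, a difference of -1.01 (SE 0.172, adjusted p 0.119). The water channel Aqp4 differed by -0.43, the neurotensin receptor Ntsr2 by -0.41 and angiotensinogen (Agt) by -0.36, while Aldh1l1, a general astrocyte marker, differed by -0.00.

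Genes induced by glucocorticoids, the adrenal stress hormones, were mostly higher, with Tsc22d3 (0.03), Tsc22d4 (0.01) and Arrdc2 (0.005) near 0. All 20 measured genes had a positive difference, 16 without overlap of arrays and 12 at an unadjusted p under 0.05, against backgrounds of 22.5% and 5.71%, and the median was 0.23. Sgk1, a kinase that regulates ion transport, read 9.71 and 9.67 in Con-s, 10.06 and 10.16 in CR-s, and 10.17 and 10.37 in CR-l, a difference of 0.58 (SE 0.101, adjusted p 0.122). Fkbp5, a co-chaperone that dampens the glucocorticoid receptor, read 7.26 and 6.91 in Con-s and 7.74 and 7.68 in CR-l, a difference of 0.63 (adjusted p 0.170). The sulfotransferase Sult1a1 differed by 0.56 (adjusted p 0.172). With the mean-dependent, robust variance 5 of the 20 passed, all higher. The receptor itself, Nr3c1, differed by 0.18 (adjusted p 0.424), and the median of 5 genes of the glucocorticoid axis was 0.02.

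Metallothioneins, which bind zinc and copper and are induced by both metals and glucocorticoids, included the largest difference of that list. Mt2A read 11.03 and 10.83 in Con-s, 11.62 and 11.27 in CR-s, and 11.61 and 12.09 in CR-l, a difference of 0.92 (SE 0.177), or 1.90-fold, with an adjusted p of 0.152. Mt1 differed by 0.40 (adjusted p 0.268), and second probe sets of Mt2A and Mt1 gave 1.01 and 0.48. The neuronal form Mt3 differed by -0.09, and the zinc exporter Slc30a1 by -0.13. The promoters of the 2 inducible genes are shown because both were higher together. They are from RefSeq GRCr8 at chr19:10838659-10838958 (Mt2A) and chr19:10832926-10833225 (Mt1), both on the minus strand. Capitals mark each TGCNCNC on either strand, a loose pattern for the metal response element core in which N is any base.
Mt2A: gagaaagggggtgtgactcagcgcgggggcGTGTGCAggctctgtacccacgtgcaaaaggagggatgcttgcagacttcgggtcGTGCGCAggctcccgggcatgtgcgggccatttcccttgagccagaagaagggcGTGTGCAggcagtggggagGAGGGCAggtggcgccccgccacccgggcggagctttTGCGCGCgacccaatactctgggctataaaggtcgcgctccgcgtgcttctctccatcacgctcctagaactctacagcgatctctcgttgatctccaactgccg
Mt1: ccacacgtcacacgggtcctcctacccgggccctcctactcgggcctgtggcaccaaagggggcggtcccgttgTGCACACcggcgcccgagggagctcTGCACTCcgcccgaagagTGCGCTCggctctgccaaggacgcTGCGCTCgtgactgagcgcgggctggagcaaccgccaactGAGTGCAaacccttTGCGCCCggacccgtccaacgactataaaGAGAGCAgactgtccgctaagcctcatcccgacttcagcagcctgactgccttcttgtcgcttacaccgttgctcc
Mt2A holds 5 matches and Mt1 holds 7 in these 300 bases. The short, loose pattern is found in 49.6% of all promoters, so its presence sets neither gene apart, and a match need not be a true element. The half-site pattern of a glucocorticoid response element, ACANNNTGT, was found in 2 of 18 promoters of the glucocorticoid-induced list and in 6.86% of all promoters.

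Clock genes were uneven, with 4 of 15 higher at an unadjusted p under 0.05 (5.71% of all genes), none lower, and a median of 0.05. Cry2, a repressor of the clock, read 9.29 and 9.36 in Con-s and 9.69 and 9.68 in CR-l, a difference of 0.36 (SE 0.0600, adjusted p 0.119). Per2, Cry1 and Per1 were higher by 0.28, 0.23 and 0.21, and Per1 is also in the glucocorticoid-induced list. The 5 with a negative difference were the repressors Nr1d1 (-0.10) and Nr1d2 (-0.05), the output factor Dbp (-0.08), and the core activators Clock (-0.05) and Bmal1 (-0.01). The sources used here state no hour of tissue collection. In 15 genes of the growth factor axis the median was 0.08: besides Igfbp3, the receptor Igf1r was higher by 0.26 (adjusted p 0.190), while Igf2 and Igfbp2, which are also in the meningeal list, differed by -0.49 and -0.29. Ppargc1a, a coactivator of mitochondrial genes, was higher by 0.27 (adjusted p 0.224) in an energy-sensing list with a median of 0.04, and the thiamine transporter Slc19a3 by 0.58 (adjusted p 0.204).

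Dividing-cell genes were mostly lower, with 14 of 16 below 0, 8 of 16 lower at an unadjusted p under 0.05 (6.5% of all genes), none higher, and a median of -0.20. Top2a, the topoisomerase of dividing cells, read 6.34 and 6.57 in Con-s and 5.56 and 5.90 in CR-l, a difference of -0.72 (SE 0.149, adjusted p 0.174). The cyclins Ccna2 and Ccnb1 differed by -0.38 and -0.23 and the nucleotide reductase subunit Rrm2 by -0.34. Both cyclins lay in or near the dim range below a log2 intensity of 6. Their means were 5.83 and 6.02 in Con-s and 5.46 and 5.79 in CR-l. The 2 members with a positive difference were the mitotic kinase Aurkb at 0.50 (unadjusted p 0.0511 in limma, adjusted 0.414) and the thymidylate synthase Tyms at 0.18. Aurkb stood at 0.85 in CR-s minus Con-s.

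Interferon-induced and antigen-processing genes had a median of -0.19, with 15 of 21 below Con-s without overlap (23% of all genes), 5 lower (6.5%) and 1 higher (5.71%) at an unadjusted p under 0.05. Rsad2 (viperin, an antiviral enzyme) differed by -0.83, Stat2 by -0.28 and B2m, the light chain of MHC class I, by -0.25, while Ifit2 was higher by 0.33.

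Stress-response and chaperone genes of the endoplasmic reticulum, the list that holds Serpinh1, were lower in part. Of 17 genes 6 were lower at an unadjusted p under 0.05 (6.5% of all genes), none higher, with a median of -0.09. The disulfide isomerases Pdia4 and Pdia6 differed by -0.30 and -0.25 and calreticulin (Calr) by -0.24, with adjusted p of 0.209, 0.221 and 0.249. Of 15 promoters in this list, 1, that of Serpinh1, holds the heat shock core. In the cold and heat-shock list 4 of 6 promoters hold it, against 8.59% of all: those of Hsph1 (-0.54), Hspa8 (-0.09), Srsf5 (-0.00) and Dnajb1 (0.03).

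In eicosanoid synthesis, Ptgds, the prostaglandin D synthase of oligodendrocytes and meninges, read 11.34 and 11.34 in Con-s, 10.12 and 9.63 in CR-s, and 9.77 and 9.89 in CR-l, a difference of -1.52 (SE 0.185, adjusted p 0.0812). Alox5, the leukotriene-forming lipoxygenase, was higher by 0.48, opposite to Alox15. The other measured genes were nearer to 0, and the median of 15 was -0.11.

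The lists of hypothalamic identity and synapse genes had medians near 0, and that of perineuronal matrix had a lower one. The median was 0.06 for 20 hypothalamic identity factors, 9 of them above Con-s without overlap (22.5% of all genes), with the smallest p for Dlx1, a homeobox gene of GABA neurons, at 0.24 (adjusted p 0.258), and Nkx2-1, Otp and Sim1 at -0.02, -0.00 and 0.07. It was 0.03 for 18 genes of the glutamate synapse and 0.03 for 15 of the GABA synapse. Grm3, a metabotropic glutamate receptor found largely on glia, differed by -0.47 (SE 0.0820, adjusted p 0.119). Grm2, its neuronal relative, differed by 0.90 with an SE of 0.312, and its Con-s arrays read 7.08 and 7.77. In 14 genes of perineuronal matrix and fast-spiking neurons the median was -0.09, 8 were below Con-s without overlap (23% of all genes) and 6 were lower at an unadjusted p under 0.05 (6.5%), led by the calcium buffer Pvalb at -0.38 and the lecticans Ncan and Bcan at -0.34 and -0.24.

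Markers of thalamus and of cortex or hippocampus, which lie next to the dissected tissue, varied between replicates of the same group. Prkcd read 8.34 on Con-s A and 10.05 on Con-s B, and 10.30 on CR-l A and 8.95 on CR-l B. Slc17a7, a vesicular glutamate transporter of cortex and thalamus, read 7.39 and 8.93 in Con-s and 9.25 and 8.40 in CR-l. Both differences, 0.43 and 0.67, were smaller than the spread within Con-s, and both turned negative without Con-s A. Averaged over 8 thalamic genes the arrays stood at -0.23 and 0.23 in Con-s and 0.35 and -0.08 in CR-l. All 8 had a positive difference, 2 of them without overlap (22.5% of all genes), with 0 at an unadjusted p under 0.05 in limma and none passing. In 11 striatal genes the median was 0.13, with 0 at an unadjusted p under 0.05 in limma and none passing. The lists of ependyma and tanycytes, immediate early genes, hypoxia-induced genes, immature neurons and thyroid hormone genes had medians between -0.03 and 0.07. Hif3a, a hypoxia-responsive gene that is also in the glucocorticoid-induced list, differed by 0.59 (adjusted p 0.175).

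**Figure D4:**
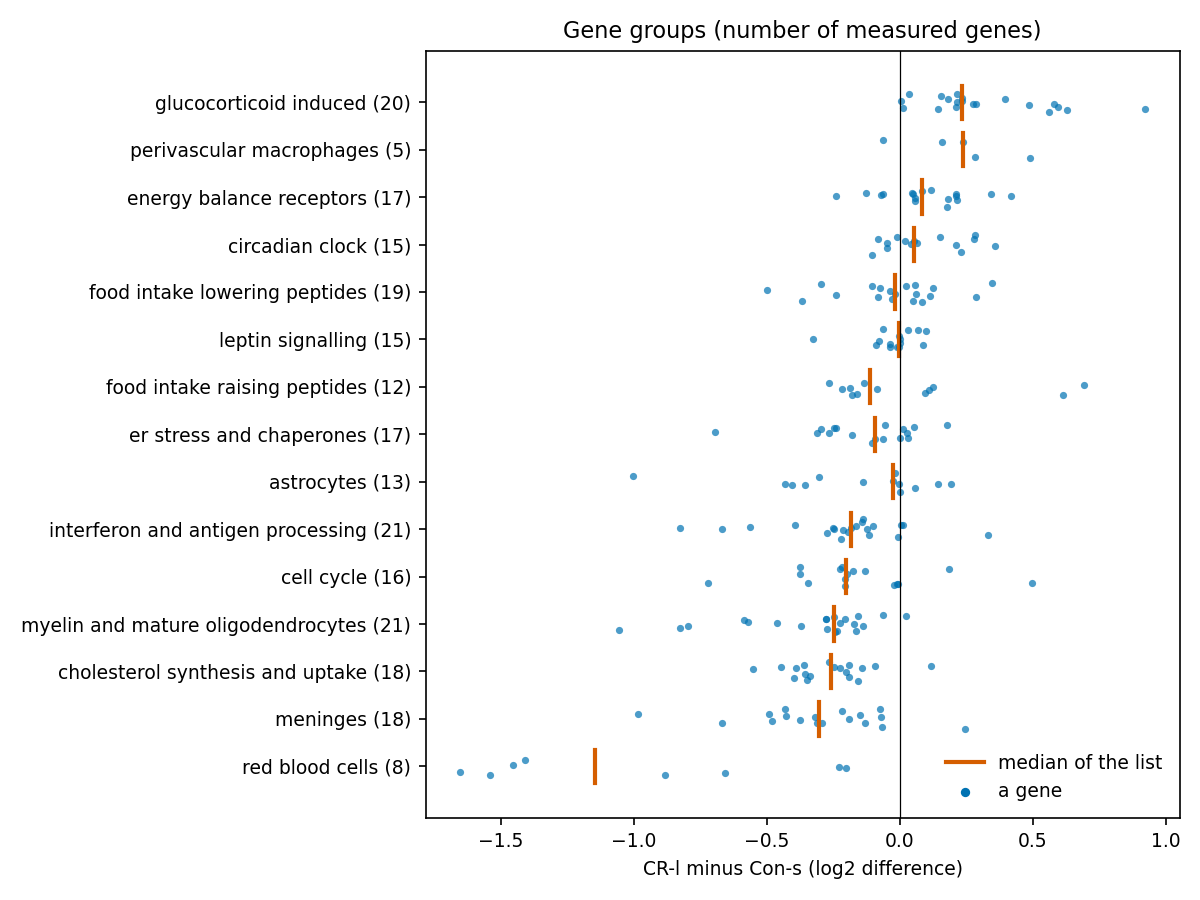
Each point is a measured gene of the list named at the left, placed by its log2 difference CR-l minus Con-s; vertical bars are list medians, vertical scatter within a row has no meaning. The glucocorticoid-induced list lies wholly to the right of 0 (median 0.23) and the red blood cell list wholly to the left (median -1.15), with cholesterol, myelin and meningeal genes mostly to the left.

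The distance of CR-l from Con-s is the sum of a diet step, CR-s minus Con-s, and a leptin step within restricted offspring, CR-l minus CR-s. The 2 steps share the CR-s arrays and the diet step shares the Con-s arrays with the whole, so their values are set side by side without a measure of likeness. In limma 0 genes passed in the diet step (0%), with 1233 at an unadjusted p under 0.05 (8.5%; 493 higher, 3.4%, and 740 lower, 5.1%) and 49 at least 1.5-fold apart without overlap (0.338%). The mean-dependent, robust variance gave 66 genes in that step. In the leptin step 0 genes passed (0%) and 0 did with the robust variance, with 849 at an unadjusted p under 0.05 (5.85%; 442 higher, 3.05%, and 407 lower, 2.81%) and 18 at least 1.5-fold apart without overlap (0.124%), 9 in each direction (0.062%).

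Among the 10 leading genes of the comparison, the diet step was the larger for 9, Gpnmb being the exception, and the leptin step had the same sign in all 10. These genes were chosen by the sum of the steps, which favours steps of the same sign, so the count describes the choice only. Genes outside the 10 included some with a leptin step toward control, such as Kcnj13 at 0.32 and the globin chaperone gene Ahsp at 0.33. Neither step was resolved, with unadjusted p of 0.164 and 0.236 in limma, and Ahsp was dim, with a mean log2 intensity of 5.77. Rbm3 had 1.13 in the diet step and 0.49 in the leptin step, and Serpinh1 had -0.43 and -0.26. For Alox15 the values were -1.65 and -0.34, for Ptgds -1.47 and -0.05, for Hbb-b1 -1.40 and -0.26, and for Ogn -1.10 and 0.11. Of the 6 genes just given, Ogn alone had a leptin step toward control. The leptin step of Rbm3 had a 95% interval of 0.16 to 0.82 and that of Serpinh1 one of -0.40 to -0.12, both on the side away from control, with unadjusted p of 0.0101 and 0.00329 in limma and an adjusted p of 0.808 for both.

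Feeding peptides were uneven in the leptin step. The diet and leptin steps were 0.48 and 0.21 for Npy, 0.71 and -0.10 for Agrp, -0.55 and 0.05 for Oxt, -0.23 and -0.13 for Cartpt and -0.21 and -0.09 for Pomc. The diet step was thus the larger in all 5, and the leptin step had the opposite sign for Agrp and Oxt. The 95% interval of the leptin step was -0.10 to 0.53 for Npy and -0.40 to 0.20 for Agrp, so neither a return toward control nor a further move was resolved. Npy1r differed in kind, with -0.00 in the diet step and 0.42 in the leptin step (unadjusted p 0.00171 in limma, adjusted 0.808).

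List medians divided between the steps in different ways. Diet and leptin steps were 0.23 and 0.05 for glucocorticoid-induced genes, -0.20 and -0.09 for myelin, -0.29 and -0.01 for cholesterol synthesis, -0.96 and -0.19 for red blood cells, -0.27 and 0.00 for meninges and -0.20 and -0.02 for the cell cycle, beside -0.00 and 0.01 over all genes. In these 6 lists the diet step was the larger. In others it was not. The diet and leptin medians were -0.11 and -0.12 for interferon and antigen processing, and 0.01 and 0.06 for the energy-balance receptors. For perivascular macrophages the diet median was the larger, at 0.14 against 0.11. For oligodendrocyte precursors the diet and leptin medians had opposite signs, at -0.11 and 0.05.

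The 10 leading genes of the leptin step were chosen by that step's own values. Pvr, a cell adhesion receptor of the nectin family, read 7.81 and 7.80 in Con-s, 6.78 and 6.72 in CR-s, and 7.41 and 7.67 in CR-l: a diet step of -1.05, a leptin step of 0.79 and a remaining difference of -0.26. Its diet step was the larger, and its CR-l arrays lay between the CR-s and Con-s arrays, nearer to Con-s. Ccdc107 had a leptin step of 0.86 and ended 0.63 above Con-s, and Apobec1, a cytidine deaminase, had one of 0.63 and ended 0.45 above. Retsat, the retinol saturase, had a leptin step of -0.86 and ended at -0.55, and Mug1, an alpha-macroglobulin-like inhibitor, -0.66 and -0.41. The other 5 leading genes of that step were the MHC genes RT1-O1 (0.60) and RT1-M1-2 (-0.67), the immune receptor Cd244l1 (0.66), the olfactory receptor Or2v2c (-0.63) and the mitochondrial protein Rtn4ip1 (-0.61). None of these 10 leptin steps passed, each with an adjusted p of 0.808 in limma.

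Adpgk, an ADP-dependent glucokinase chosen after its values were seen, had the largest leptin step, 1.22. It read 7.96 and 7.90 in Con-s, 8.03 and 8.02 in CR-s, and 9.19 and 9.31 in CR-l, with 7.99 on Con-l A and 9.77 on Con-l B. CR-l minus Con-s was 1.32 with an SE of 0.474 and an adjusted p of 0.346; fitted on the 4 compared arrays alone the SE was 0.0722. Without either Con-l array Adpgk was the gene that passed against Con-s (adjusted p 0.0142) and against CR-s (0.0226), and with the 4 compared arrays alone it passed together with Ptgds (adjusted p 0.0495 and 0.0394).

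**Figure D5:**
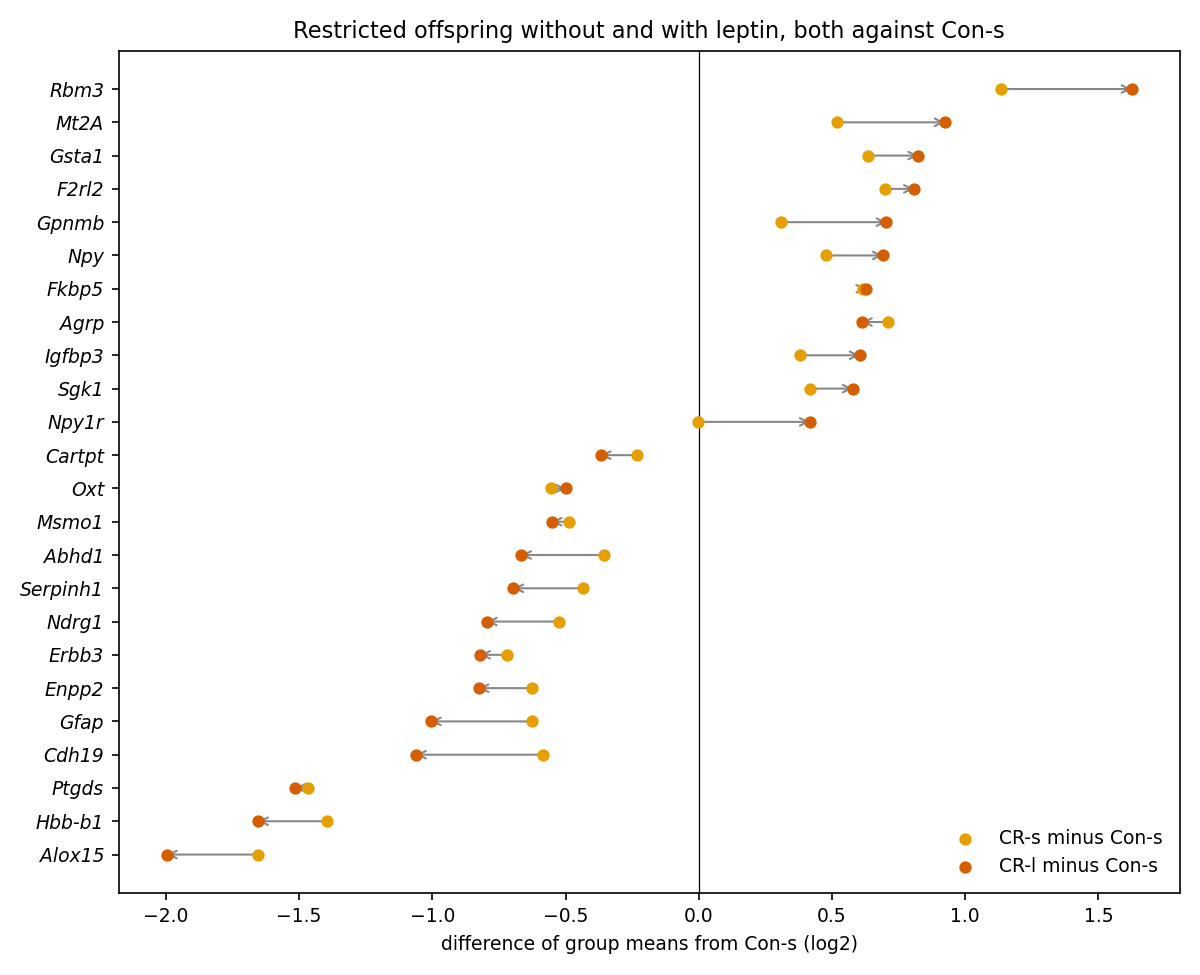
For 24 genes, yellow points give CR-s minus Con-s and red points CR-l minus Con-s on the log2 scale; arrows run from the saline-treated to the leptin-treated restricted group. In Rbm3, Serpinh1, Gfap and Cdh19 the arrow points away from 0, in Agrp and Oxt slightly toward it, and Npy1r starts at -0.00 and ends at 0.42.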

How the data were processed

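Hypothalamic RNA of 8 samples was measured on Affymetrix Rat Gene 1.0 arrays, 2 in each of 4 groups. The authors' deposited values are linear-scale intensities, 1 per probe set, made with RMA in Affymetrix Expression Console, per the submitters' processing notes (version not given in the sources used here). They were log2-transformed and not normalized again. Array medians lay between 112 and 114, and the lowest correlation between any 2 arrays was 0.994. With no detection calls, dim probe sets were kept, and precision is limited by 2 arrays per group. Of 29215 probe sets, 15633 are in the annotation, 15310 with 1 symbol and 323 with several. Of the 15310, 15279 were named through Entrez numbers, 6 through an accession and 25 by the array's symbol. For 527 genes with several probe sets the brightest was kept, giving 14506 genes. A limma 3.58.1 model in R 4.3.3 with 4 group means over all 8 arrays (4 residual and 3.21 prior degrees of freedom, two-sided, Benjamini-Hochberg over all genes) gave every contrast, and intervals are 95%. It was run on simulated data with planted log2 changes of 1 and 2, which are larger than most differences described here. An exact permutation test of 2 arrays against 2 cannot go below p = 0.333 and was not used.

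Named were 16 energy-balance genes (15 measured); up to 15 genes per direction that passed, filled to 5 per direction by smallest p among genes at least 1.5-fold different; up to 4 genes per list by smallest p; the 5 leading genes per direction in the diet and leptin steps; and cell type markers. The members, the 42 lists (668 entries, 590 measured) and the rule were chosen with earlier results of these data known, so lists are described by counts and medians without a test. Promoters are from RefSeq GRCr8. Alternatives varied the variance model, dim genes, probe sets, normalization, an added offset, the arrays fitted and the block.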

Additional observations from a re-analysis of the deposited data

How the results depend on the processing

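The number of genes that passed between CR-l and Con-s, 2 (1 up, 1 down), was 213 (65 up, 148 down) with the mean-dependent, robust variance, 103 (32 up, 71 down) among the brighter 60% of genes, 42 (8 up, 34 down) after adding 16 to each intensity, and 0 with all probe sets tested (0 up, 0 down). The robust-variance and brighter-60% results shared 93 genes, 43.7% of the first and 90.3% of the second. Renormalization by quantiles or cyclic loess, and averaging probe sets, again gave Rbm3 and Serpinh1. The 4 arrays alone gave 2 other genes. Leaving out single arrays gave 0 to 1 genes passed, 0 to 1 up and 0 down for this comparison, and 0 to 1 for CR-l against CR-s. For CR-s against Con-s, 66 and 16 genes passed with the robust variance and the brighter 60%. Genes at least 1.5-fold apart without overlap, 69, were 44 among the brighter 60%, where fewer genes were counted. The sources used here do not say whether the replicate letters pair the samples. Correlations of same-letter deviations over all genes were -0.06 to 0.11, which does not settle it. With the letter as a replicate block in limma 0 genes passed (0 up, 0 down, smallest adjusted p 0.112). Single-array removals turned the direction of 9 named genes: Crh ran from -0.104 to 0.0436, Trh from -0.22 to 0.26, Mc3r from -0.0730 to 0.163, Socs3 from -0.077 to 0.0793, Aldh1l1 from -0.0426 to 0.0398, Dcn from -0.25 to 0.11, Prkcd from -0.43 to 1.29, Slc17a7 from -0.10 to 1.44 and Ttr from -0.34 to 0.10. These 9 were among 120 named genes checked, and the others of the 120 kept their direction under the alternatives run. Genes named outside those 120, among them Cldn5, were not checked in this way. Except where fewer genes or arrays enter, the cause was not tested.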
